A study of Mus musculus with 12 samples.

Results

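Organoids grown from progenitor cells of the mouse kidney medulla were compared with organoids grown from progenitor cells of the kidney cortex, across all genes that a probe set named alone. The comparison used 4 of the 12 arrays of the series, 2 of medulla-derived and 2 of cortex-derived organoids, chosen by the region and sample type in the labels. Of 18193 genes with such a probe set, 12998 were bright enough to be tested. The other 8 arrays, 2 each of medulla and cortex progenitor cells and of medulla and cortex kidney tissue, entered the model and served as a comparison at the end. Per the labels, progenitors were cultured on fibroblast feeder cells and organoids were then formed in Matrigel, a basement membrane gel made from a mouse tumour. The labels call the replicates biological and give no strain, age, sex, clone or time in culture, and no genotype or drug treatment is named for any group. They do not say whether the 2 organoid arrays of a region came from separate animals, so the spread between replicates may be technical. The p-values rest on a spread pooled over all 6 groups of the series, not on that of the organoid arrays alone.

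The kidney cortex holds the glomeruli and most of the proximal and distal convoluted tubules, while the medulla holds the loops of Henle and the straight collecting ducts that concentrate urine. Tubules are simple epithelium, with E-cadherin and keratins 8, 18 and 19, lying on a basement membrane of type IV collagen, laminin and nidogen. Mesenchymal cells between them make vimentin, N-cadherin, fibrillar collagens and type VI collagen, and tubular cells in culture or after injury can also make some of these. Organoids in a gel lack blood flow and most of the salt gradient of the organ.

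The organoids of both regions had bright epithelial genes. Epcam, an epithelial adhesion molecule, had deposited log2 signals of 12.32 and 12.22 in medulla-derived organoids, against 12.75 and 12.65 in cortex-derived organoids. Cdh1, which encodes E-cadherin, had 12.32 and 12.27 in medulla-derived organoids, against 12.41 and 12.34 in cortex-derived organoids. Cdh16, a cadherin of kidney tubules, lay between 11.66 and 12 on the 4 arrays, and Pax8, a transcription factor of renal epithelium, between 11.75 and 12.48. None of these 4 passed the test between regions, with adjusted p of 0.26 for Epcam, 0.799 for Cdh1, 0.401 for Cdh16 and 0.0518 for Pax8. Segment markers were mixed. Umod of the thick ascending limb and Slc26a4 of intercalated cells lay between 10.73 and 12.18, whereas Lrp2, Slc34a1, Slc12a1, Slc12a3 and Aqp2, which mark the proximal tubule, the loop of Henle, the distal convoluted tubule and the collecting duct, did not exceed 6.26 on any organoid array, where array medians were 6.21 to 6.53.

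The spread between replicates was uneven. The 2 medulla-derived organoid arrays correlated across genes with r = 0.945 and had a median absolute log2 difference of 0.415, against r = 0.983 and 0.210 for the 2 cortex-derived arrays. Pairs of 1 medulla-derived and 1 cortex-derived array had r of 0.934 to 0.941 and median absolute differences of 0.396 to 0.479. For the typical gene the difference between the medulla-derived replicates was thus within the range of the differences between regions. The 3′ minus 5′ log2 signal of the Gapdh control, a measure of how complete the labelled RNA is, was 1.15 and 0.87 on the medulla-derived arrays and 1.53 and 1.67 on the cortex-derived arrays, without overlap, while that of Actb was -0.002 and 0.11 against 0.02 and 0.15. The part of this gap in the differences below was not tested. On the 8 progenitor and tissue arrays, whose spread entered the same model, the Gapdh value was lower, at -0.405 to 0.183. The median log2 signal of the poly-A control probe sets was 1.16 to 2.31 on the organoid arrays, against 6.89 to 8.48 on those 8 arrays. What these gaps add to the comparisons with progenitor cells and tissue was not tested.

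Promoters are shown for 5 genes whose levels separate the regions: Vim and Col6a1 of mesenchymal cells, Aqp1 and Gata3 of tubules, and Padi1, the gene with the largest fall. They are the RefSeq windows of GRCm38.p6, 250 bases before to 50 after the start of each gene, on the gene's strand: Vim at chr2:13574061-13574360 (plus), Col6a1 at chr10:76725995-76726294 (minus), Aqp1 at chr6:55336049-55336348 (plus), Gata3 at chr2:9878551-9878850 (minus) and Padi1 at chr4:140845729-140846028 (minus). Capitals mark matches on either strand to TGAGTCA, bound by AP-1, to AGATAA, bound by GATA factors, or to TATAAA, the TATA box; no 2 matches overlapped.
Vim: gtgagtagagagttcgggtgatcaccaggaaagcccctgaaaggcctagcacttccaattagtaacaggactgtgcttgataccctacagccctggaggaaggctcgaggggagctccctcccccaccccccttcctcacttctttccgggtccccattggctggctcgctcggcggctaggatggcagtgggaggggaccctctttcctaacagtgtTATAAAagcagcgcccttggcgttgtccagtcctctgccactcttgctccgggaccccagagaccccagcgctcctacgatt
Col6a1: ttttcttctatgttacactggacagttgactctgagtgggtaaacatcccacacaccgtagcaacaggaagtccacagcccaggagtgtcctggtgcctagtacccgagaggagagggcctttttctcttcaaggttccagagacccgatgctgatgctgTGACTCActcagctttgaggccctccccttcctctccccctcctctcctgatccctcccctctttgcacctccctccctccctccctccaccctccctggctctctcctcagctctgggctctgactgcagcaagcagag
Aqp1: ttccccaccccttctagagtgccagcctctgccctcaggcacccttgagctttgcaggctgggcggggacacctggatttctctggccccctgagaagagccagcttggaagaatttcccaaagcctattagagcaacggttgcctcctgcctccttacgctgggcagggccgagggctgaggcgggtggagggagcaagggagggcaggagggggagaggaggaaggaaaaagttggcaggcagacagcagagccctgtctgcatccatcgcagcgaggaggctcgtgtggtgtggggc
Gata3: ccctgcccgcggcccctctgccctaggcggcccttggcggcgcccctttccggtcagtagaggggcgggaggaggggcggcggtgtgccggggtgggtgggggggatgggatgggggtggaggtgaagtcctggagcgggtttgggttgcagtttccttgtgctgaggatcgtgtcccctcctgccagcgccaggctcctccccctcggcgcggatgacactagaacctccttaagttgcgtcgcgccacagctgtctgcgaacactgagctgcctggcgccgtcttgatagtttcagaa
Padi1: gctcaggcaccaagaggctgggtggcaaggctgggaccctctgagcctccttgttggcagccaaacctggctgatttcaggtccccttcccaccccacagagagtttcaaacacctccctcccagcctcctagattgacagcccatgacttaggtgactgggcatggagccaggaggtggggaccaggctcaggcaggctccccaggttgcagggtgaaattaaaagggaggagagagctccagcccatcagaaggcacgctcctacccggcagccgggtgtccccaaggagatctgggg
The Vim window holds 1 TATA match and the Col6a1 window 1 AP-1 match, while the Aqp1, Gata3 and Padi1 windows hold none of the 3 motifs. Among all 32851 promoter windows of the same length, 5.2% hold the AP-1 motif, 11.2% the GATA motif and 13.6% the TATA motif.

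Between the regions, 2334 of 12998 genes passed the test (18.0%; limma, Benjamini-Hochberg adjusted p under 0.05), of which 1033 rose in medulla-derived organoids (7.95%) and 1301 fell (10.0%). Both medulla-derived arrays lay above both cortex-derived arrays for 24.2% of the genes tested, and below both for 26.0%. All 2334 genes that passed lacked overlap between the arrays of the regions. Among them 522 rose and 576 fell at least 2-fold. The median difference over all genes tested was -0.002. These calls use a spread pooled over all 6 groups. When each group was weighted by its own spread, which gave the medulla-derived organoid arrays a weight of 0.234, 433 genes passed (3.33%), 205 of them up (1.58%) and 228 down (1.75%), and all 433 were among the 2334. The 4 organoid arrays alone gave 239 genes. Leaving out 1 array of the 6-group model gave 1220 genes without cortex-derived replicate 1, 1061 without cortex-derived replicate 2, 3188 without medulla-derived replicate 1 and 4311 without medulla-derived replicate 2. Of the 119 genes that passed and were followed by name, 66 passed in the weighted model, and of these 66 all but Pdgfrb and Hoxc10 also passed whichever array was left out. The fit of the 4 organoid arrays alone kept 54 of the 119. Of the 66, it lost 18, with adjusted p of 0.0507 to 0.163: Fxyd4, Fgf7, Snai2, Acsm2, Sprr1b, Mcm7, Pcdh11x, Kcnj1, Aqp4, Spink8, Cdh2, F11r, Id3, Klk1, Itga3, Pdgfrb, Hoxc10 and Kitl. In what follows the text says which named genes the weighted model no longer called, and differences are on the scale of log2(signal + 15.1473), which understates the change of dim genes.

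**Figure D1:**
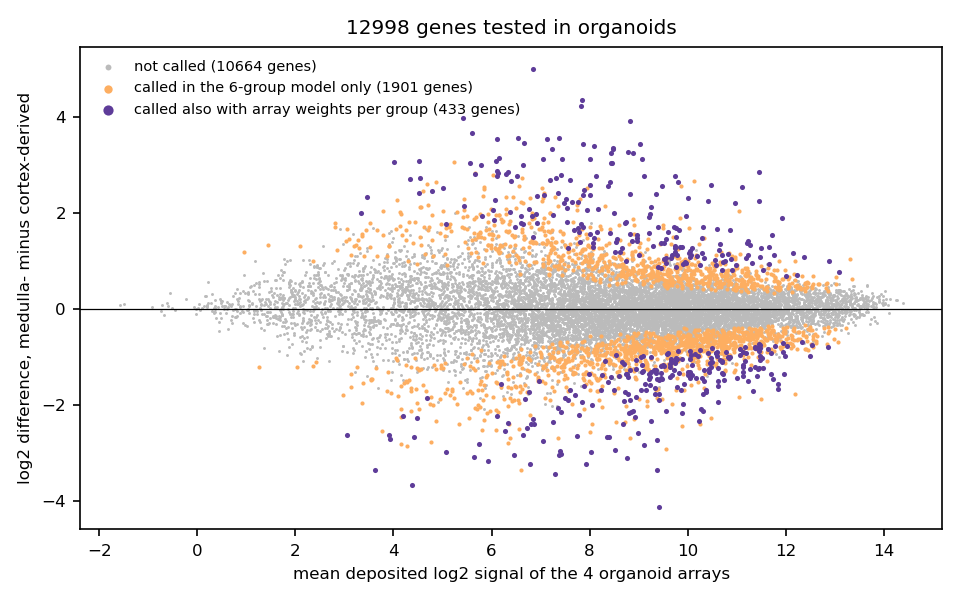
Difference between medulla- and cortex-derived organoids (log2, medulla minus cortex, vertical axis) against the mean deposited log2 signal of the 4 organoid arrays (horizontal axis), 1 point a gene for 12998 genes. The 433 genes called also with array weights and the 1901 called in the 6-group model alone are shown beside the 10664 not called. The first 2 classes overlap in size of difference: Klk1b21 at -3.36 is among the 1901 and Cldn1 at 1.20 among the 433.

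The genes with the largest rises belonged to several kinds. Saa1, an acute-phase apolipoprotein on chromosome 7, had log2 signals of 10.02 and 9.95 in medulla-derived organoids, against 5.14 and 2.30 in cortex-derived organoids. This was 32.2-fold higher (log2 difference 5.01 ± 0.47 SE, adjusted p = 8.79e-05); the cortex-derived replicates were dim and far apart. The probe set may also read its near-identical relative Saa2. Mgp, a matrix protein that inhibits calcification, on chromosome 6, had 10.32 and 10.13 in medulla-derived organoids, against 5.45 and 5.45 in cortex-derived organoids. It was 20.6-fold higher (4.37 ± 0.25 SE, adjusted p = 5.65e-06), with both pairs of replicates close together. Ccl7, a chemokine for monocytes on chromosome 11, had 10.04 and 10.33 in medulla-derived organoids, against 6.42 and 4.54 in cortex-derived organoids, and was 19.0-fold higher (4.25 ± 0.41 SE, adjusted p = 0.000115).

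Tmem52b, which encodes a transmembrane protein of the distal nephron, had 10.87 and 10.90 in medulla-derived organoids, against 6.81 and 6.74 in cortex-derived organoids. Its difference was 3.93 ± 0.40 SE (adjusted p = 0.000137), and the replicates of each region nearly coincided. Gata3, a transcription factor of the collecting duct and nephric duct, had 9.19 and 9.12 in medulla-derived organoids, against 4.74 and 5.50 in cortex-derived organoids, a difference of 3.54 ± 0.28 SE (adjusted p = 3.6e-05). Aqp1, the water channel of the proximal tubule and the thin descending limb, had 9.24 and 8.12 in medulla-derived organoids, against 4.53 and 4.22 in cortex-derived organoids, a difference of 3.57 ± 0.30 SE (adjusted p = 4.9e-05). Both genes were bright in medulla-derived organoids and below the array median in cortex-derived organoids. The other 6 of the 12 largest rises were S1pr3 (3.99), a receptor for sphingosine 1-phosphate, Tshz3 (3.68), a zinc finger transcription factor, S100a7l2 (3.57), of the S100 calcium-binding family, Afp (3.46), a fetal plasma protein, Col6a2 (3.45), a chain of type VI collagen, and Adgrf5 (3.44), an adhesion receptor. All 12 passed in the weighted model.

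The largest fall was that of Padi1, which converts arginine in proteins to citrulline in squamous epithelia. It had 6.82 and 7.76 in medulla-derived organoids, against 11.57 and 11.54 in cortex-derived organoids, a level 17.6-fold higher in cortex-derived organoids (difference -4.14 ± 0.39 SE, adjusted p = 8.68e-05). Tmprss11a, a membrane-bound serine protease of squamous epithelia, had 1.81 and 0.28 in medulla-derived organoids, against 7.84 and 7.55 in cortex-derived organoids (-3.67 ± 0.41 SE, adjusted p = 0.000235). Enpp3, a surface enzyme that cleaves nucleotides, had 6.08 and 4.63 in medulla-derived organoids, against 9.34 and 9.15 in cortex-derived organoids (-3.44 ± 0.35 SE, adjusted p = 0.000132). For all 3 the cortex-derived replicates lay close together and the medulla-derived ones further apart.

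Arg1, the urea cycle enzyme arginase, had 6.79 and 7.50 in medulla-derived organoids, against 10.36 and 10.42 in cortex-derived organoids (-3.11 ± 0.30 SE, adjusted p = 0.000117). Wfdc18 (-3.36), a secreted protein with a whey acidic protein domain, Rapgefl1 (-3.24), a relative of exchange factors for Ras-like proteins, Pag1 (-3.05), a membrane adaptor that binds Src-family kinases, and Cd177 (-3.04), a surface glycoprotein best known from neutrophils, also fell. So did the kallikrein genes Klk1b21 (-3.36) and Klk1b27 (-3.09), whose many near-identical relatives may share probe signal, and Pcdh11x (-3.18), a protocadherin. Klk1b21 had 6.27 and 2.58 in medulla-derived organoids, against 8.88 and 8.67 in cortex-derived organoids, and it alone of the 12 falls was lost in the weighted model (adjusted p = 0.0522). Cxcl14, the remaining one, is given with the chemokines below.

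**Figure D2:**
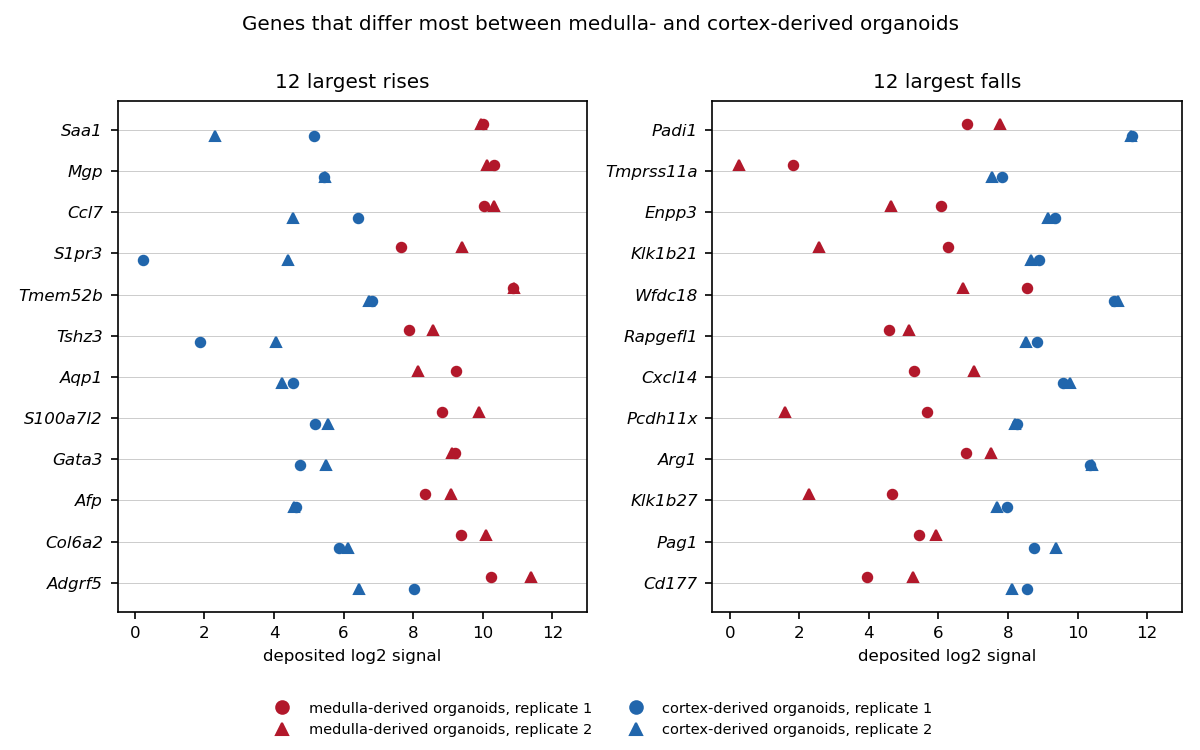
Deposited log2 signals of the 12 genes with the largest rises (left) and the 12 with the largest falls (right), with 1 point an array: red for medulla-derived and blue for cortex-derived organoids, circles for replicate 1 and triangles for replicate 2. The regions do not overlap for any of the 24, by the rule that chose them, and the 2 medulla-derived points of Klk1b21, at 6.27 and 2.58, lie far apart.

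Genes of fibroblasts and mesenchyme were higher in medulla-derived organoids as a group. Of 29 tested, 22 rose and 0 fell, beside 7.95% and 10.0% of all genes. The median difference was 1.94, against -0.002 over all genes tested. In the weighted model 14 rose, and leaving out each organoid array in turn gave 17 to 22. The mean log2 signal over the list was 8.24 and 8.28 in medulla-derived organoids, against 5.74 and 6.13 in cortex-derived organoids. Among the progenitor arrays the list mean was 9.06 and 8.97 for medulla and 8.79 and 8.76 for cortex. The progenitor cultures had feeder fibroblasts, and whether any remained in the organoids was not tested. In such bulk samples, fewer cells of a type and less RNA per cell cannot be told apart.

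Type VI collagen forms beaded filaments next to basement membranes, and its 3 chains on the list rose together. Col6a1, whose promoter is shown above, had 10.35 and 10.15 in medulla-derived organoids, against 6.82 and 6.60 in cortex-derived organoids (3.36 ± 0.30 SE, adjusted p = 6.37e-05). Col6a2, already named, had 9.37 and 10.08 in medulla-derived organoids, against 5.87 and 6.12 in cortex-derived organoids. Col6a3 had 9.69 and 8.52 in medulla-derived organoids, against 4.94 and 5.76 in cortex-derived organoids (3.33 ± 0.46 SE, adjusted p = 0.000869). As for every gene that passed, no array of one region reached those of the other for any of the 3 chains. Dcn, a proteoglycan that binds collagen fibrils, rose by 3.13 (adjusted p = 0.000132). Pcolce, which enhances the cleavage of procollagen, had 11.85 and 11.70 in medulla-derived organoids, against 9.13 and 9.18 in cortex-derived organoids (2.59 ± 0.14 SE, adjusted p = 5.65e-06). Col1a1, a chain of type I collagen, was bright in both, with 12.03 and 11.78 in medulla-derived organoids, against 10.49 and 10.55 in cortex-derived organoids, and was 2.59-fold higher (1.37 ± 0.17 SE, adjusted p = 0.000429).

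The list of genes of the transition from epithelium to mesenchyme shares 4 of its members with the fibroblast list. It had 16 rises and 1 fall among 27 tested, beside 7.95% and 10.0% of all genes, with a median of 1.35. In the weighted model 9 rose and 0 fell, and leaving out each organoid array in turn gave 12 to 19 rises. Vim, the intermediate filament of mesenchymal cells, had 13.06 and 12.73 in medulla-derived organoids, against 9.87 and 10.18 in cortex-derived organoids, and was 7.2-fold higher (2.85 ± 0.18 SE, adjusted p = 1.14e-05). Its probe set is marked as cross-hybridizing, and the other probe sets of Vim differed by 2.77 and 3.01. Cdh2, which encodes N-cadherin, had 7.67 and 7.80 in medulla-derived organoids, against 5.45 and 5.49 in cortex-derived organoids (1.94 ± 0.18 SE, adjusted p = 7.97e-05). The replicates of both genes lay close together in each region. Snai2, a repressor of epithelial genes, had 8.0 and 9.07 in medulla-derived organoids, against 5.36 and 2.05 in cortex-derived organoids (3.56 ± 0.52 SE, adjusted p = 0.00122). That probe set is marked as cross-hybridizing, for which reason Snai2 is not among the 12 largest rises, and a dimmer probe set of the gene differed by 0.16. Sparc, a matrix glycoprotein, rose by 2.66 (adjusted p = 4.6e-05) and Mmp2, a protease that cleaves type IV collagen, by 2.65 (adjusted p = 0.000983). Cdh11, a mesenchymal cadherin (2.34), and Prrx1, a mesenchymal transcription factor (2.18), rose too, but not in the weighted model (adjusted p = 0.0602 and 0.109). The 1 fall was that of Tgfb2, a TGF-beta ligand (-0.84), also lost there (adjusted p = 0.234).

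Genes of simple epithelium did not shift as a group. Of 38 tested, 3 rose and 5 fell, near the shares of all genes, with a median of -0.05 and with 2 to 6 rises and 3 to 6 falls when 1 array was left out. The list mean was 10.59 and 10.55 in medulla-derived organoids, against 10.64 and 10.61 in cortex-derived organoids. Some junction proteins did differ. Cldn1, a sealing claudin, had 10.67 and 10.63 in medulla-derived organoids, against 9.41 and 9.46 in cortex-derived organoids (1.20 ± 0.13 SE, adjusted p = 0.000204). F11r, a junctional adhesion molecule, had 9.68 and 10.21 in medulla-derived organoids, against 11.05 and 10.92 in cortex-derived organoids (-1.03 ± 0.15 SE, adjusted p = 0.00131). Cldn6, a claudin of embryonic epithelium, fell by 1.22 (adjusted p = 0.00171). Cdh6, a cadherin of nephron precursors (-1.44), Grhl1, an epithelial transcription factor (1.64), and Cldn2, the pore-forming claudin of the proximal tubule (0.80), passed in the pooled model and not in the weighted one (adjusted p = 0.0522, 0.0885 and 0.214). Krt8 and Krt19, keratins of simple epithelium, differed by 0.37 (adjusted p = 0.114) and -0.45 (adjusted p = 0.409).

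**Figure D3:**
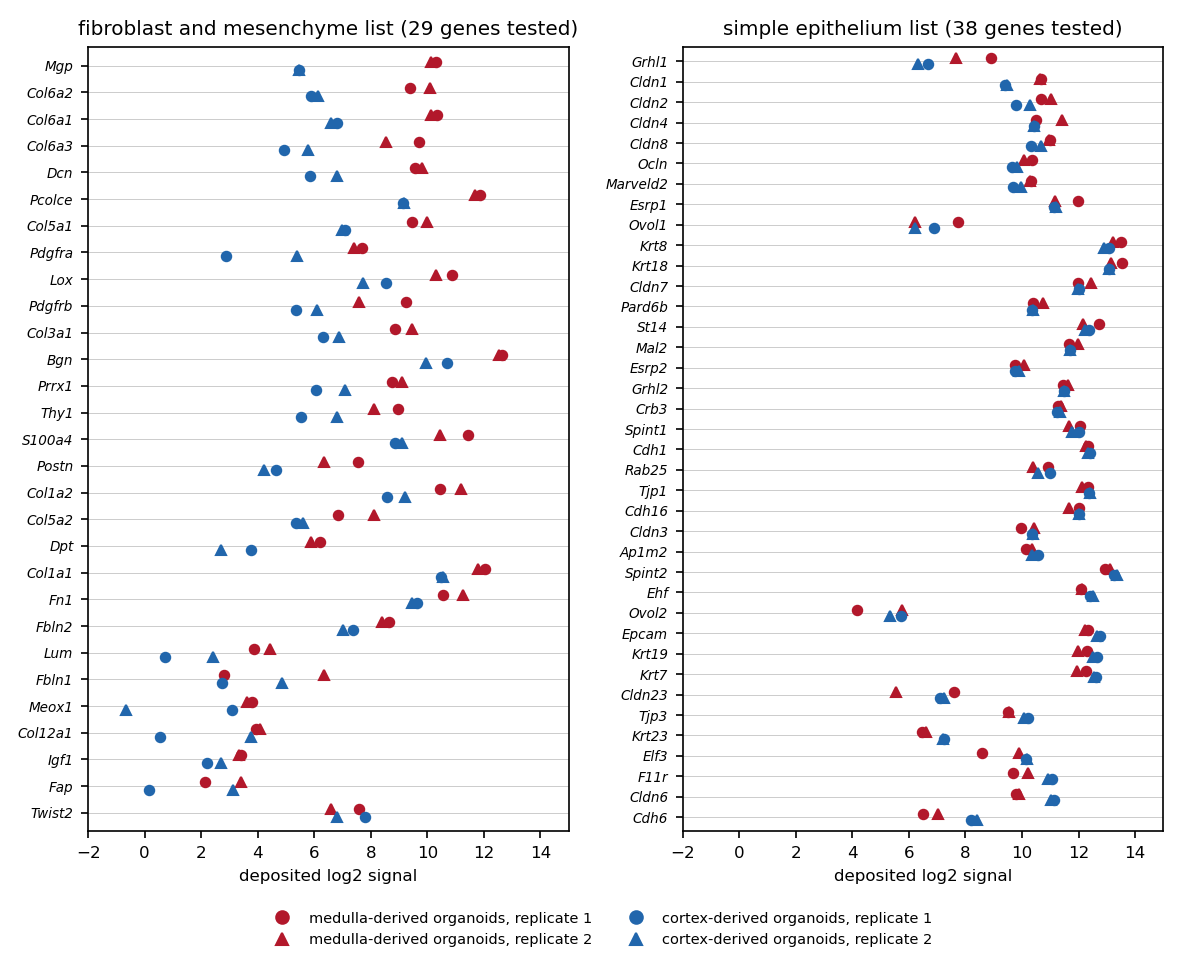
Deposited log2 signals of the 29 fibroblast and mesenchyme genes (left) and 38 simple epithelium genes (right) tested, ordered by difference, with 1 point an array: red for medulla-derived and blue for cortex-derived organoids, circles for replicate 1 and triangles for replicate 2. The red points lie right of the blue ones for most of the left panel, where 22 of 29 genes rose, and the colours mix in the right panel, where 3 rose and 5 fell.

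Markers of endothelial, immune and smooth muscle cells, which tissue could hold, were mostly dim. The podocyte list was not, with a mean log2 signal of 7.08 and 7.27 in medulla-derived organoids, against 6.65 and 6.71 in cortex-derived organoids. Medians of the organoid arrays were 6.21 to 6.53. Of 17 endothelial genes tested 0 rose and 1 fell, and of 17 immune cell genes 1 rose and 0 fell, beside 7.95% and 10.0% of all genes. Of 15 smooth muscle and pericyte genes 1 rose and 0 fell, and of 12 podocyte genes 0 passed. With so few genes to a list, few calls would be found at those shares too. In the weighted model 0 genes of any of these lists passed. The endothelial list mean was 4.37 and 4.17 in medulla-derived organoids, against 3.70 and 3.56 in cortex-derived organoids, where Pecam1, a defining marker, did not exceed 3.79 on any of the 4 arrays. The immune list mean was 4.95 and 4.87 in medulla-derived organoids, against 4.60 and 4.41 in cortex-derived organoids. Its marker Ptprc stood above that mean, with 9.06 and 9.68 in medulla-derived organoids, against 9.32 and 9.31 in cortex-derived organoids (adjusted p = 0.914). Acta2, the smooth muscle actin, had 7.53 and 5.74 in medulla-derived organoids, against 6.5 and 5.24 in cortex-derived organoids (adjusted p = 0.389).

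The basement membrane and integrin list was divided, with 6 rises and 3 falls among 31 tested, beside 7.95% and 10.0% of all genes, and a median of 0.13. The weighted model gave 4 rises and 1 fall, and leaving out 1 array 5 to 9 rises and 1 to 5 falls. Nid1, which links laminin to collagen, had 10.54 and 10.83 in medulla-derived organoids, against 7.36 and 7.53 in cortex-derived organoids (3.13 ± 0.29 SE, adjusted p = 8.68e-05). Col4a1, a chain of the common type IV collagen, had 12.55 and 12.24 in medulla-derived organoids, against 9.64 and 10.03 in cortex-derived organoids (2.54 ± 0.18 SE, adjusted p = 2.22e-05), and its partner chain Col4a2 rose by 1.91 (adjusted p = 0.000329). The falls were smaller: Col4a3, a chain of the mature glomerular basement membrane (-1.09), Itga3, a laminin-binding integrin chain (-0.99), and Lama5, a laminin chain (-0.75). Of these Itga3 alone passed in the weighted model (adjusted p = 0.0497, against 0.164 for Col4a3 and 0.115 for Lama5), and another probe set of Itga3 had the opposite sign. Among 22 matrix proteases and inhibitors 7 rose and 3 fell, with 3 to 7 rises when 1 array was left out. Besides Mmp2, Timp1, an inhibitor of such proteases, rose by 2.14, though not in the weighted model (adjusted p = 0.129). Mmp14, a membrane-bound protease that activates Mmp2, had 9.31 and 9.54 in medulla-derived organoids, against 10.82 and 10.96 in cortex-derived organoids (-1.44 ± 0.18 SE, adjusted p = 0.000477), and the collagenase Mmp13 fell by 1.71 (adjusted p = 0.0703 in the weighted model).

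Single genes for secreted signals differed. Of 27 chemokine and cytokine genes 6 rose and 4 fell, beside 7.95% and 10.0% of all genes, with 2 rises and 2 falls in the weighted model and 2 to 6 falls when 1 array was left out. Ccl2, a chemokine for monocytes like Ccl7, had 12.89 and 12.86 in medulla-derived organoids, against 11 and 10.93 in cortex-derived organoids, and was 3.73-fold higher (1.90 ± 0.19 SE, adjusted p = 0.000137). Cxcl14, a chemokine made by epithelia, had 5.30 and 7.03 in medulla-derived organoids, against 9.59 and 9.77 in cortex-derived organoids (-3.23 ± 0.38 SE, adjusted p = 0.000355). Ppbp, a chemokine for neutrophils, had 10.82 and 10.14 in medulla-derived organoids, against 12.35 and 12.04 in cortex-derived organoids (-1.71 ± 0.22 SE, adjusted p = 0.00059). These 3 also passed in the weighted model. Il6, an inflammatory cytokine (2.60), and Cxcl12, a chemokine of stromal cells (2.03), passed in the pooled model only (adjusted p = 0.0748 and 0.0532 in the weighted one). Among 20 acute-phase and defence genes 5 rose and 1 fell. Besides Saa1 they include Saa2 (1.83, adjusted p = 0.105 in the weighted model), on a probe set marked as cross-hybridizing, which may share signal with Saa1. The fall was that of Cfb, complement factor B, with 11.24 and 11.34 in medulla-derived organoids, against 13.11 and 13.05 in cortex-derived organoids (-1.78 ± 0.40 SE, adjusted p = 0.0102, and 0.247 in the weighted model).

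Of 40 growth factors and receptors 11 rose and 3 fell, with 3 rises and 1 fall in the weighted model and 6 to 14 rises when 1 organoid array was left out. Over all genes tested, 7.95% rose and 10.0% fell, and in the weighted model 1.58% rose and 1.75% fell. Fgf7, which mesenchymal cells secrete for epithelia, had 8.58 and 9.11 in medulla-derived organoids, against 5.14 and 6.41 in cortex-derived organoids (2.74 ± 0.37 SE, adjusted p = 0.000734). The receptors of platelet-derived growth factor rose too. Pdgfra had 7.70 and 7.41 in medulla-derived organoids, against 2.89 and 5.40 in cortex-derived organoids, and was lost in the weighted model (adjusted p = 0.119), while Pdgfrb rose by 2.38 (adjusted p = 0.0436 in the weighted model, and 0.0561 without cortex-derived replicate 1). Vegfc, a lymphatic growth factor (2.07), rose and Fgf1, an acidic fibroblast growth factor (-1.08), fell in the pooled model only (adjusted p = 0.0615 and 0.124 in the weighted one). Kitl, the ligand of the Kit receptor, had 5.86 and 4.56 in medulla-derived organoids, against 7.27 and 7.04 in cortex-derived organoids (-1.57 ± 0.27 SE, adjusted p = 0.00273).

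In the Wnt pathway 5 of 36 genes rose and 3 fell, beside 7.95% and 10.0% of all genes, with 2 rises and 2 falls in the weighted model, and 3 to 7 rises and 2 to 8 falls when 1 organoid array was left out. The ligand Wnt5b had 5.66 and 5.85 in medulla-derived organoids, against 9.10 and 8.97 in cortex-derived organoids (-2.97 ± 0.36 SE, adjusted p = 0.000364), on a probe set marked as cross-hybridizing. The other probe set of Wnt5b differed by -0.18, with 5.52 and 6.12 in medulla-derived organoids, against 5.95 and 6.17 in cortex-derived organoids. Sfrp1, a secreted Wnt antagonist, had 5.42 and 4.76 in medulla-derived organoids, against 8.32 and 8.07 in cortex-derived organoids (-2.64 ± 0.26 SE, adjusted p = 0.000117). Porcn, the enzyme that lipidates Wnt ligands, rose by 1.60 (adjusted p = 0.000355), and the receptor Fzd4 by 1.48 (adjusted p = 0.0017). Lef1, a Wnt-responsive transcription factor (1.53), and the ligand Wnt7a (-1.23) passed in the pooled model only (adjusted p = 0.252 and 0.241 in the weighted one). Of 31 TGF-beta and BMP genes 5 rose and 6 fell, with 2 rises and 1 fall in the weighted model, and 2 to 6 rises and 2 to 9 falls when 1 array was left out. Grem1, a secreted BMP antagonist, had 10.51 and 11.05 in medulla-derived organoids, against 7.86 and 8.44 in cortex-derived organoids (2.56 ± 0.28 SE, adjusted p = 0.000211), and Id3, a BMP target, rose by 1.31 (adjusted p = 0.00196). Inhbb, a subunit of activin B, had 8.43 and 9.36 in medulla-derived organoids, against 10.94 and 10.90 in cortex-derived organoids (-1.99 ± 0.30 SE, adjusted p = 0.00136). Tgfbi, a TGF-beta-induced matrix protein, fell by 2.08 (adjusted p = 0.0871 in the weighted model).

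The lists of nephron segments held both rises and falls. Of 35 proximal tubule genes 4 rose and 7 fell, and of 16 loop of Henle genes 3 rose and 2 fell. Over all genes tested, 7.95% rose and 10.0% fell. For the proximal tubule list, leaving out 1 array gave 2 to 6 rises and 2 to 8 falls. Among 20 principal cell genes of the collecting duct 6 rose and 1 fell, and in the weighted model 3 rose, beside 1.58% of all genes there. Calb1, the calcium-binding protein of the distal and connecting tubule, had 9.96 and 10.18 in medulla-derived organoids, against 7.21 and 6.51 in cortex-derived organoids, and was 8.26-fold higher (3.05 ± 0.24 SE, adjusted p = 3.6e-05). In the same list of 15 genes 1 rose and 2 fell, and the falls were those of the tissue kallikrein Klk1 (-2.18, adjusted p = 0.00538) and of Sgms2, a sphingomyelin synthase (-1.56, adjusted p = 0.000404). Another probe set of Klk1, which may read its relatives, had the opposite sign. Kcnj1, the potassium channel of the thick ascending limb, had 9.30 and 8.42 in medulla-derived organoids, against 6.11 and 6.76 in cortex-derived organoids (2.24 ± 0.35 SE, adjusted p = 0.00171). Cldn16, a claudin of the same segment needed for magnesium uptake, had 11.33 and 11 in medulla-derived organoids, against 8.82 and 8.26 in cortex-derived organoids (2.57 ± 0.41 SE, adjusted p = 0.00171, and 0.114 in the weighted model).

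Umod, the main protein secreted by that segment, had 10.74 and 10.75 in medulla-derived organoids, against 11.30 and 11.54 in cortex-derived organoids. It fell by 0.67 (adjusted p = 0.0286), in the opposite direction to Kcnj1 and Cldn16, and was lost in the weighted model (adjusted p = 0.37), as was the fall of Irx1, a homeobox gene of the nephron (-0.78, adjusted p = 0.216). The principal cell genes that rose include, besides Gata3, Fxyd4, a regulator of the sodium pump, with 9.70 and 8.72 in medulla-derived organoids, against 6.64 and 6.46 in cortex-derived organoids (2.48 ± 0.40 SE, adjusted p = 0.00203), and the basolateral water channel Aqp4, with 7.06 and 7.59 in medulla-derived organoids, against 4.74 and 4.74 in cortex-derived organoids (2.07 ± 0.27 SE, adjusted p = 0.000563). Aqp2, the channel set by vasopressin, had 5.15 and 5.58 in medulla-derived organoids, against 6.26 and 5.78 in cortex-derived organoids (adjusted p = 0.357). Of 19 intercalated cell genes 2 rose and 2 fell, near the 7.95% and 10.0% of all genes. Slc26a4, which encodes the anion exchanger pendrin, was bright, with 11.06 and 10.73 in medulla-derived organoids, against 12.08 and 12.18 in cortex-derived organoids, and fell by 1.23 (adjusted p = 0.0129, and 0.149 in the weighted model). Car12, a carbonic anhydrase, fell by 1.28 (adjusted p = 0.0511 in the weighted model), and Spink8, a protease inhibitor of the Kazal type, rose by 1.45 (adjusted p = 0.000461). Kit, the receptor of Kitl, rose with dim signals that reached 4.73 at most (1.19, adjusted p = 0.319 in the weighted model).

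Within the proximal tubule list, Anpep, a brush border peptidase, had 10.70 and 10.34 in medulla-derived organoids, against 8.88 and 9.11 in cortex-derived organoids (1.5 ± 0.25 SE, adjusted p = 0.00219). Acsm2, an enzyme that activates fatty acids, had 0.78 and 3.31 in medulla-derived organoids, against 6.56 and 6.14 in cortex-derived organoids (-2.23 ± 0.29 SE, adjusted p = 0.000516). Both passed in the weighted model, whereas Slc22a6, an organic anion carrier (1.66), Napsa, an aspartic protease (-1.54), Slc7a9, a cystine carrier (-1.42), Pck1, an enzyme of gluconeogenesis (-1.18), and Kap, an androgen-regulated secreted protein of mouse kidney (-1.0), did not (adjusted p of 0.138 to 0.311). Of 13 urothelial genes 3 rose and 1 fell, and of 22 basal and squamous genes 2 rose and 0 fell. These counts stand beside 7.95% rises and 10.0% falls over all genes tested. Upk1a, a uroplakin, had 10.37 and 10.73 in medulla-derived organoids, against 12.53 and 12.38 in cortex-derived organoids (-1.89 ± 0.33 SE, adjusted p = 0.00281, and 0.0586 in the weighted model). Krt5, the basal keratin, rose by 1.53 with dim signals (adjusted p = 0.025, and 0.268 in the weighted model), and Sprr1b, a cornified envelope protein, by 2.74 (adjusted p = 0.00159). Trp63, which marks basal cells, differed by 0.73 (adjusted p = 0.342).

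Among 25 Hox genes 1 rose and 4 fell, with 1 to 9 falls when 1 organoid array was left out. Hoxc10 had 8.62 and 10.20 in medulla-derived organoids, against 11.08 and 11.36 in cortex-derived organoids (-1.78 ± 0.36 SE, adjusted p = 0.00612, 0.0134 in the weighted model and 0.0609 without cortex-derived replicate 2). Hoxc4 (-1.71), Hoxc8 (-1.04), Hoxd9 (-0.64) and Hoxa11 (2.17), which with Hoxc10 pattern the body axis, passed in the pooled model only, with adjusted p of 0.0724 to 0.24 in the weighted one. The Hox counts and those below stand beside 7.95% rises and 10.0% falls over all genes, which the cell cycle counts are near. Of 33 cell cycle genes 2 rose and 4 fell (3 to 10 falls when 1 array was left out), and the proliferation marker Mki67 did not pass (0.02, adjusted p = 0.973). Mcm7, a subunit of the replicative helicase, had 10.50 and 10.14 in medulla-derived organoids, against 11.30 and 11.37 in cortex-derived organoids (-1.01 ± 0.14 SE, adjusted p = 0.000832). Rrm1 (-1.08) and Rrm2 (0.54), subunits of ribonucleotide reductase, went opposite ways, both lost in the weighted model (adjusted p = 0.0674 and 0.174), and the mean of all probe sets of Rrm2 turned its sign to -0.01. Cdc6, a factor that loads the helicase, fell by 1.19 (adjusted p = 0.195 in the weighted model). Of 22 interferon response genes 0 rose and 8 fell, with a median of -0.49, but 0 fell in the weighted model and 1 to 10 when 1 organoid array was left out. Oasl2, an antiviral protein, had 7.23 and 7.51 in medulla-derived organoids, against 9.01 and 8.85 in cortex-derived organoids (-1.48 ± 0.32 SE, adjusted p = 0.00822, and 0.144 in the weighted model). The same list held falls of Usp18 (-1.47), Bst2 (-1.09) and Rsad2 (-0.98), with adjusted p of 0.071 to 0.144 in the weighted model.

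The remaining lists held few calls, and most lay near the shares of all genes. For tubular injury and adult progenitor genes 6 of 26 rose and 2 fell, a share of rises above the 7.95% of all genes. Vim and Timp1, given above, are among the 6. In the weighted model 1 rose and 1 fell, beside 1.58% and 1.75% of all genes there. Havcr1 and Lcn2, both injury markers, were bright and not called (-0.04, adjusted p = 0.932, and 0.10, adjusted p = 0.901). Rises and falls numbered 1 and 2 of 30 for renal developmental transcription factors, among which Sox9 (0.38, adjusted p = 0.568) and Six2 (0.33, adjusted p = 0.572) did not pass, 1 and 0 of 9 for inner medulla urea and osmolyte genes, where the urea transporter Slc14a2 did not pass (0.65, adjusted p = 0.457), 1 and 2 of 18 for cell cycle inhibitors and p53 targets, and 3 and 3 of 21 for YAP targets. They numbered 3 and 2 of 26 for immediate early genes, 2 and 2 of 20 for the hypoxia response, 4 and 2 of 24 for amino acid and unfolded protein stress, and 0 and 0 of 18 for the Notch pathway. In metabolism they numbered 3 and 3 of 30 for xenobiotic and glutathione genes, 3 and 0 of 28 for oxidative phosphorylation (0 to 12 rises when 1 array was left out), 2 and 2 of 21 for fatty acid oxidation, 3 and 1 of 21 for glycolysis, and 0 and 2 of 22 for cholesterol and fatty acid synthesis. Klf4, an epithelial transcription factor of the immediate early list, had 10.55 and 10.72 in medulla-derived organoids, against 11.85 and 11.93 in cortex-derived organoids (-1.25 ± 0.15 SE, adjusted p = 0.000329).

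**Figure D4:**
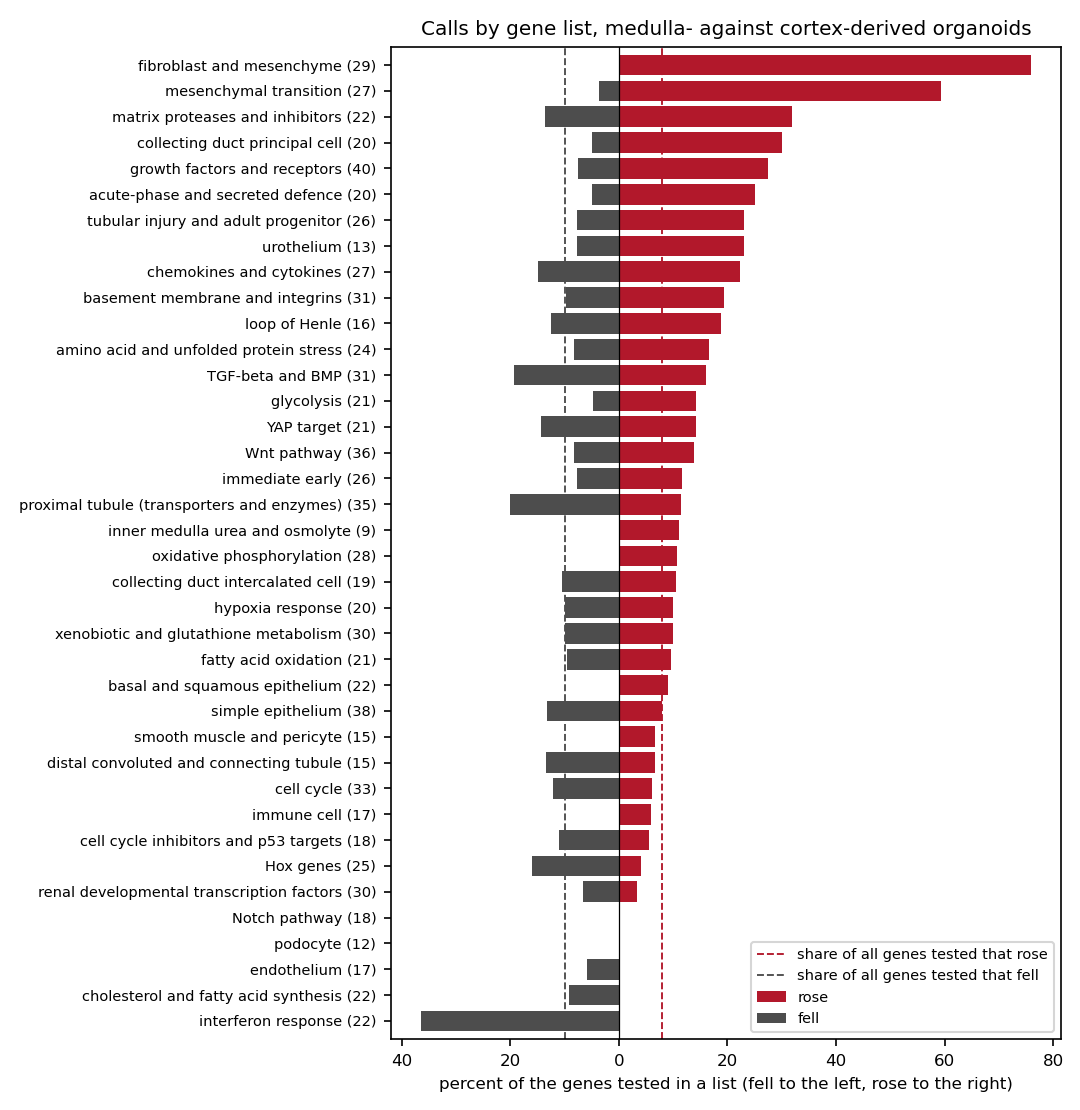
Percent of the genes tested in each of 38 lists that rose (red, to the right) or fell (grey, to the left) in medulla-derived against cortex-derived organoids, with the number tested in parentheses. Dashed lines mark the shares of all 12998 genes, 7.95% for rises and 10.0% for falls, and the fibroblast list with 22 rises of 29 stands furthest right.

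The region difference of organoids was set against that of the progenitor cells they came from and that of tissue, by testing the difference of the 2 differences. Medulla against cortex called 36 genes up (0.277%) and 5 down (0.0385%) in progenitor cells, and 39 up (0.3%) and 1 down (0.00769%) in tissue. Of the 36 that rose in progenitor cells 20 also rose in organoids, and 2 of the 5 falls were shared. The 20 are 55.6% of the progenitor rises and 1.94% of the organoid rises. Among all genes tested, 7.95% rose and 10.0% fell in organoids. These counts use the pooled model, and the overlap was not counted in the weighted one. The organoid difference itself differed from that of progenitor cells for 531 genes (4.09%), and from that of tissue for 1092 genes (8.4%).

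Adgrf5 was among the shared rises, with 10.25 and 11.38 in medulla-derived organoids, against 8.02 and 6.45 in cortex-derived organoids, a difference 0.48 larger than the 2.96 ± 0.43 SE (adjusted p = 0.00963) in progenitor cells (adjusted p of the difference 0.729). The organoid difference of Aqp1 was 1.51 larger than its progenitor difference of 2.06 (adjusted p = 0.00963), which did not pass the test of the difference (adjusted p = 0.0708). That of Gata3 was 1.73 larger than its progenitor difference of 1.81 (adjusted p = 0.0122), which did (adjusted p = 0.0327). Spink8 (2.01), Kit (2.37) and Cldn2 (1.7) also rose and Klf4 (-1.0) also fell in medulla progenitor cells, and none of the 4 passed the test of the difference between organoids and progenitor cells. The organoid difference of Vim exceeded its progenitor difference of 0.52 (adjusted p = 0.564) by 2.33 (adjusted p of the difference 0.00168), and that of Mgp exceeded its progenitor difference of 0.83 (adjusted p = 0.368) by 3.53 (adjusted p of the difference 0.000875). For Col6a1 the organoid difference exceeded the progenitor one of 0.03 by 3.33 (adjusted p of the difference 0.00288). Mgp and Col6a1 were named by the size of their organoid differences, which favours such an excess. The tests of the difference used the pooled spread.

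Car12, given above, and 4 genes named after their values were seen passed in both with opposite signs. Car12 fell by 1.28 in medulla-derived organoids and rose by 1.23 in medulla progenitor cells, Stox2 fell by 0.55 in organoids and rose by 1.0 in progenitor cells, and Gstt2, a glutathione transferase, fell by 0.73 in organoids and rose by 1.06 in progenitor cells. In organoids 2 of the other bright probe sets of Stox2 had the opposite sign (0.18 and 0.46). Clec2d, a C-type lectin, was higher in medulla-derived organoids (0.52) and lower in medulla progenitor cells (-1.82), and Vldlr, a lipoprotein receptor, likewise (0.63 in organoids and -0.85 in progenitor cells). All 5 organoid calls were lost in the weighted model (adjusted p of 0.0511 to 0.259).

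With tissue, the organoid rises shared 2 of 39 genes, 5.13% of the tissue rises and 0.194% of the organoid rises. That 5.13% lies below the 7.95% of all genes tested that rose in organoids. The 2 are the uroplakin Upk3b (1.65 in organoids, 3.14 in tissue) and the cytoskeletal linker Dst (0.54 in organoids, 0.74 in tissue). Tcim and Pof1b, also named after their values were seen, fell by 0.83 and 0.82 in medulla-derived organoids and rose by 0.78 and 1.48 in medulla tissue. These 4 organoid calls were lost in the weighted model (adjusted p of 0.0534 to 0.203). Krt19 differed by -0.45 in organoids (adjusted p = 0.409) and by 2.58 in tissue (adjusted p = 0.00772), and the organoid minus the tissue difference was -3.02 (adjusted p = 0.00475). For Upk1b, a uroplakin that was likewise chosen after its values were seen, the organoid difference was -0.12 and the tissue difference 3.22 (adjusted p = 0.0174, and 0.0137 for the difference between them).

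**Figure D5:**
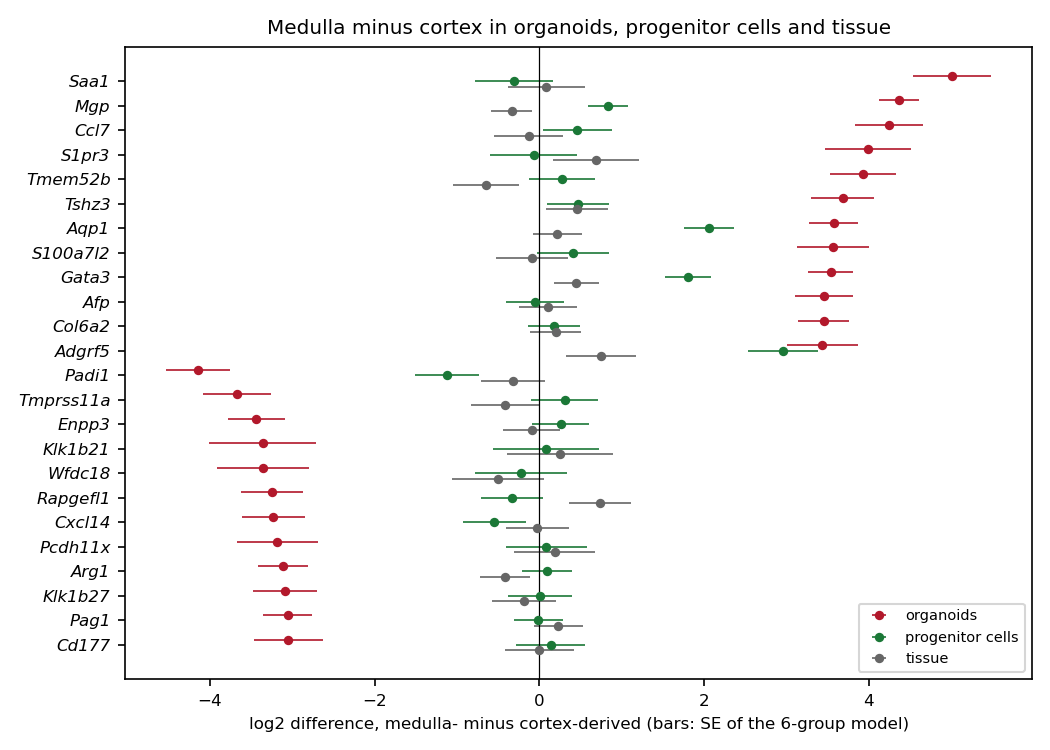
Region difference (log2, medulla minus cortex, horizontal axis) of the 24 genes with the largest organoid differences, in organoids (red), progenitor cells (green) and tissue (grey), with bars for the SE of the 6-group model. The genes were chosen by the organoid values, which are all larger than 3 log2 units in size, and the progenitor values of Adgrf5, Aqp1 and Gata3, at 2.96, 2.06 and 1.81, stand apart from the other 21, of which the furthest from 0 is that of Padi1 at -1.12.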

How the data were processed

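RNA was measured on 12 Affymetrix mouse arrays labelled from the 3′ end, 2 in each of 6 groups, of which the 4 organoid arrays are reported. The authors deposited log2 signals per probe set, made with MAS5 per the submitters' processing notes (version not given in the sources used here). In the values, each array was scaled to a trimmed mean of 500 signal units with 2% trimmed at each end, with no centring of genes. Array medians were 5.86 to 6.53 (log2). Presence calls were not analysed here, and the number of arrays limits the precision.

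Of 45101 probe sets, 64 were controls. The platform annotation gave 34958 probe sets 1 symbol, 932 several and 9211 none, and 34741 of those with 1 symbol matched RefSeq by gene ID. The brightest probe set stood for a gene, which was tested if both arrays of any group exceeded their median. Signals were unlogged, 15.1473 units (the 25th percentile) added, and log2 taken again. limma 3.58.1 in R 4.3.3 fitted 6 group means with a variance trend, leaving 6 residual degrees of freedom (median prior 5.69), with two-sided tests adjusted by Benjamini-Hochberg over 12998 genes at 0.05. SE comes from this model, whose code was tested on simulated data. Alternatives concerned scaling, offset, filter, probe set, arrays, weights and a replicate block.

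The comparison, the 38 gene lists, the tests and the naming rule were chosen with earlier results of these data known. Named are the 12 largest rises and falls at least 2-fold without overlap, passing over unnamed gene models and cross-hybridizing probe sets, up to 6 called members each way of the lists described, and a fixed set of marker genes. Which of these list members the text gives was settled after their values were seen. Genes outside the rule are marked where they appear. Of the genes named, Snai2, Wnt5b, Vim, Saa2, Rrm2, Vegfc, Tgfbi, Vldlr and Upk1b are read by probe sets marked as cross-hybridizing. Of 1010 list entries 950 were on the array. Crossed blocks, list counts under other fits and other probe sets were added after the data were seen. Same-numbered organoid arrays did not deviate together (r = 0.05), so replicate numbers were not taken as pairs.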

Additional observations from a re-analysis of the deposited data

Results flagged for a closer look

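For 24 genes with the largest organoid differences and for the marker genes, the region difference of organoids (log2, medulla minus cortex) was tested against that of progenitor cells and that of tissue with an interaction term in limma, adjusted over 12998 genes. Those that passed are given here as the organoid difference minus the progenitor one and, second, minus the tissue one. Among the rises these were Saa1 (5.31 and 4.92), Mgp (3.53 and 4.70), Ccl7 (3.78 and 4.38), S1pr3 (4.06 and 3.30), Tmem52b (3.66 and 4.58). They were also Tshz3 (3.21 and 3.22), S100a7l2 (3.16 and 3.66), Gata3 (1.73 and 3.09), Afp (3.5 and 3.35), Col6a2 (3.28 and 3.25). Aqp1 and Adgrf5 passed against tissue (3.36 and 2.69) and not against progenitor cells. Among the falls these were Padi1 (-3.02 and -3.82), Tmprss11a (-3.98 and -3.25), Enpp3 (-3.70 and -3.34), Wfdc18 (-3.14 and -2.86), Rapgefl1 (-2.91 and -3.98), Cxcl14 (-2.68 and -3.20), all of them more negative in organoids. The same holds for Pcdh11x (-3.26 and -3.36), Arg1 (-3.20 and -2.70), Klk1b27 (-3.09 and -2.90), Pag1 (-3.04 and -3.28), Cd177 (-3.19 and -3.04). Klk1b21 passed against tissue (-3.61) alone.

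Of the markers, Vim (2.33 and 2.63) and Cdh2 (2.18 and 2.16) passed against both. Against tissue alone passed Col1a1 (1.23), Epcam (-1.53) and Krt19 (-3.02), and against progenitor cells alone Slc26a4 (-1.68). The Epcam difference was -0.43 in organoids and 1.10 in tissue, neither of which passed by itself (adjusted p = 0.26 and 0.111). The genes with the largest organoid differences were chosen for them, which favours large differences here. The causes were not tested.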

How the results depend on the processing

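The counts of organoid calls depend most on how the spread is estimated. Against 2334 genes, 1033 up and 1301 down, array weights per group gave 433, 205 and 228, and the organoid arrays alone 239, 109 and 130. At least 2-fold and without overlap, 1098 genes became 369 and 229. Leaving out each organoid array in turn gave 1061 to 4311 genes called, 513 to 2031 up, 548 to 2280 down and 733 to 2004 at least 2-fold. The difference from the progenitor region difference was called for 531 genes, for 222 with array weights and for 177 to 2491 when 1 array was left out, and the difference from tissue for 1092, 386 and 436 to 3175. Fits without a cortex-derived array gave the low ends and fits without a medulla-derived array the high ends, the lone sample being assumed to vary like the other groups. Quantile or 75th percentile scaling, offsets of 1 or the median signal, looser or organoid-based filters, averaged probe sets and no variance trend kept the organoid count between 1793 and 2558.

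With the replicate block, 1949 genes were called between organoids, and 257 and 642 for the differences from progenitor cells and tissue. The labels do not say what equal numbers share, and arrays of equal number did not deviate together (r = 0.05 in organoids, -0.11 in progenitor cells and -0.14 in tissue). With numbers crossed in progenitor cells and tissue, an alternative added after seeing the data, 407 and 1014 were called.

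Of the 119 called genes followed by name, 47 kept direction and call in every alternative and 79 when any 1 array was left out. Rrm2 turned sign, to -0.013, with the mean of all probe sets. Among 1802 other bright probe sets of called genes, 73.3% had the sign of the reported one, against 60.7% over all other bright probe sets, and 2.16% were called the opposite way. Dim cortex-derived or medulla-derived signals limit folds, which depend there on the offset. The cause of these shifts was not tested.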
